A study of Homo sapiens with 6 samples.

Results

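The switching blocks are 200-kb stretches of chromosomes 1 to 22 that lay in compartment A in at least 1 of 4 cancer cell lines and in compartment B in at least 1 other. They were chosen by the first eigenvector of the correlation matrix of observed over expected Hi-C contacts, computed per chromosome arm and per line, signed so that blocks with more protein-coding genes were positive, and scaled to a standard deviation of 1. A block counted as A above 0.5, as B below -0.5 and as between otherwise. By this rule 1384 of 12512 usable blocks switched (11.1% of the blocks), while 2884 blocks were A in all 4 lines, 3365 were B in all 4 and 4879 fell in none of these classes. The eigenvector values below are those that selected the blocks and are given as a description without a test. In situ Hi-C joins and sequences DNA ends that lie close together in the nucleus, here after cutting chromatin with MboI. SW480 and SNU-C1 derive from colorectal cancer, HCC1954 from breast cancer and OE33 from esophageal adenocarcinoma, and each is a single established line that the labels give without any treatment. For SW480 there are 3 maps, of which 2 carry a replicate number and the other, with the depth of both replicates together, represented the line. The other lines have a single map, so differences between lines have a replicate check in SW480 only.

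Chromosomes fold into alternating segments that preferentially contact segments of their own kind. Compartment A is gene-rich, GC-rich and mostly active, and compartment B is gene-poor, mostly silent and often attached to the nuclear lamina. Much of the genome keeps its compartment across cell types, and segments that change often hold genes used by particular lineages. The first eigenvector of a contact map separates the compartments only where they are the strongest pattern of an arm. In a cancer genome rearrangements and copy number also shape contact maps.

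A cluster of protease inhibitor genes on 18q and a cluster of interferon-induced genes on 10q are among the loci described below. The 250 bases before the GENCODE start of 5 of their genes are shown. On 18q they set genes inside switching blocks beside SERPINB5, a neighbour in a block A in all lines. The window of SERPINB8, the neighbour B in all lines, is not shown. On 10q the genes shown all lie inside switching blocks. The sequences are from GRCh37, 5′ to 3′ on the strand of the gene. In the first set each CpG is in capitals. SERPINB5, outside the switching blocks, has 13 CpG in the window chr18:61143941-61144190 on the plus strand. SERPINB3 and SERPINB13, inside them, have 3 each, in chr18:61329128-61329377 on the minus strand and chr18:61253973-61254222 on the plus strand.
SERPINB5: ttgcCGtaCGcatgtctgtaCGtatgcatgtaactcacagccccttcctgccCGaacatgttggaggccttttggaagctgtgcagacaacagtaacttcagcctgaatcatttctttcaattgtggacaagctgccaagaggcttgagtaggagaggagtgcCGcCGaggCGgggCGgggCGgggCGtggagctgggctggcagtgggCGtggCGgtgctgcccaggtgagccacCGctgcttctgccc
SERPINB3: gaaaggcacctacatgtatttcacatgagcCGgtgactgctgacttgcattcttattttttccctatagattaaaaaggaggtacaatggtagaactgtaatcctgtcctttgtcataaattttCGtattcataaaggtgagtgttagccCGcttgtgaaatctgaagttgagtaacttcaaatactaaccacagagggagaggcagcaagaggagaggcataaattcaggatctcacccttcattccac
SERPINB13: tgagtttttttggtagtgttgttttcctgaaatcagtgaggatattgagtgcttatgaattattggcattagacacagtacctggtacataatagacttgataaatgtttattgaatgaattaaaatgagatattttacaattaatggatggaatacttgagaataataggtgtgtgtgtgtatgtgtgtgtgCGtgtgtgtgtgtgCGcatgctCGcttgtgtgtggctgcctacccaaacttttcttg
In the second set capitals mark matches to GAAANNGAAA or its reverse TTTCNNTTTC, the core of the element bound by interferon-activated factors. IFIT1, chr10:91152053-91152302 on the plus strand, and IFIT5, chr10:91174075-91174324 on the plus strand, hold 2 matches each, which do not overlap.
IFIT1: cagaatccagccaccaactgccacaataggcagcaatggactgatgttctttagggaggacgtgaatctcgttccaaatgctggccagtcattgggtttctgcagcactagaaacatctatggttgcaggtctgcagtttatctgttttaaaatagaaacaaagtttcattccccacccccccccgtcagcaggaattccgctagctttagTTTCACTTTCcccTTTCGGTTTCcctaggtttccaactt
IFIT5: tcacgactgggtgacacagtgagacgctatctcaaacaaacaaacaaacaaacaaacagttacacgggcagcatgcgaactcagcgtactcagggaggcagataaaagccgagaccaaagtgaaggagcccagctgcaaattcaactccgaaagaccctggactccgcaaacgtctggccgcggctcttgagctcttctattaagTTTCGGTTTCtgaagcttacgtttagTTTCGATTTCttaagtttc
Of 17521 such windows before protein-coding genes 2.93% held a match. The share was 4.06% of 912 windows in switching blocks outside the arms set apart below, close to 4.09% in blocks B in all lines, and 2.52% in blocks A in all lines. The windows of IFIT2, IFIT3 and CH25H in the same run held none. SERPINB3 and SERPINB4 are near copies whose windows differ at 3 of 250 bases.

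Promoters in switching blocks lay between those of constant blocks in CpG content. Their windows held a median of 13 CpG, and of 11 outside the arms set apart. The median was 16 where blocks were A in all lines, 7 where they were B in all lines and 14 over all windows. Blocks neither switching nor constant also had a median of 13. Outside the arms set apart, 22.5% of 912 windows had at most 2 CpG, against 10.4% of 8369 in constant A blocks, 33.3% of 1589 in constant B blocks and 15.6% of all windows. In blocks neither switching nor constant 17.3% of 6326 windows did. A place between the constant classes is thus not particular to switching blocks.

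Switching blocks were spread unevenly over the arms, from 1.08% of the blocks on 17p to 46.6% on 9p. On 4 arms the eigenvector of 1 line correlated below 0.5 with the mean of the other 3 lines. These were 9p in HCC1954 at -0.112, 13q in SNU-C1 at 0.285, 20p in HCC1954 at 0.496 and 21q in HCC1954 at 0.494. They held 303 switching blocks, of which 90 lay on 9p, 155 on 13q, 26 on 20p and 32 on 21q. Along 9p the eigenvector of HCC1954 changed sign 2 times and the mean of the other lines 20 times. The second eigenvector of HCC1954 on 9p correlated with the other lines at 0.878, and that of SNU-C1 on 13q at 0.869. With these second eigenvectors 24 blocks switched on 9p and 39 on 13q. On 20p and 21q the second eigenvector reached 0.647 and 0.300. The 4 arms are set apart below, and the 1081 switching blocks on the other 35 arms are given apart from them.

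**Figure D1:**
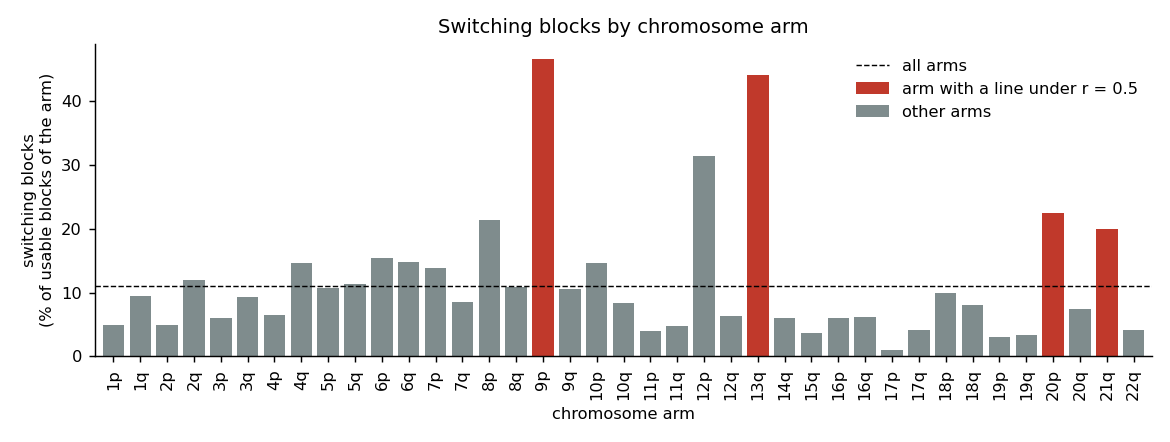
Switching blocks by chromosome arm. Bars give switching blocks as a percentage of the usable blocks of each arm, with the 4 arms set apart in another colour, and the line marks 11.1%, the share over all arms. The arms 9p and 13q reach 46.6% and 44.2%, and 12p, at 31.4%, is the highest of the others.

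Among the other arms 12p had the largest share, with 49 of 156 blocks, and 8p followed with 35 of 164. On 8p the eigenvector of SNU-C1 correlated with the other lines at 0.553, its second eigenvector at 0.778, and 25 blocks switched with the latter. On 15q the first eigenvector of SNU-C1 accounted for 10.8% of the variation, against 27.3% in SW480, and 14 of 375 blocks switched.

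Replicates of SW480 gave no switching block between them. No block was A in replicate 1 and B in replicate 2 or the reverse, their eigenvectors correlated at 0.994, and the largest difference in any block was 0.690. Across the 4 lines the range of the eigenvector at a switching block had a median of 1.91 and a maximum of 3.67, against a median of 0.639 over all blocks. The rule itself makes this range wide, with a minimum of 1.03. Over all blocks the median absolute difference was 0.0647 between the replicates and from 0.210 to 0.333 between 2 lines. With replicate 1 in place of the SW480 map, 965 chosen blocks were A or B in that replicate. Of these, 878 had the same state in replicate 2, which had no part in the choice (91.0%, exact 95% binomial interval 89.0 to 92.7), and 87 lay between the thresholds. None had the opposite state. Intervals here cover counting error only and take neighbouring blocks as independent. The share of states kept over all A or B blocks was not computed, so the chosen blocks cannot be set beside it. Close to the threshold, the smaller of the highest value and the lowest with its sign turned had a median of 0.522 in 188 blocks just inside and of 0.473 in 163 blocks just outside.

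SNU-C1 and HCC1954 opposed each other most often, in 732 blocks, and SW480 and OE33 least often, in 323. The colorectal lines SW480 and SNU-C1 opposed each other in 491 blocks, SW480 and HCC1954 in 561, SNU-C1 and OE33 in 460, and HCC1954 and OE33 in 376. Without the arms set apart the most were again SNU-C1 and HCC1954, with 493, and the fewest HCC1954 and OE33, with 253, while the colorectal pair had 343. Where SNU-C1 and HCC1954 differed, 577 blocks were A in HCC1954 and 155 in SNU-C1. SNU-C1 was B in 827 switching blocks and A in 292. Over the whole genome its mean eigenvector, which was not centred, was -0.234, against -0.150 to -0.0591 in the other lines, and 46.2% of its blocks were B, against 39.1% to 43.8%. With each eigenvector centred on its mean, an alternative chosen after seeing the data, 1272 blocks switched.

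In 456 switching blocks every line passed a threshold, and in 360 of them 1 line stood alone. HCC1954 was alone in A in 106 blocks and in B in 40. SNU-C1 was alone in A in 21 and in B in 120, SW480 in 47 and 12, and OE33 in 6 and 8. With the expected contact taken per chromosome, the blocks of SNU-C1 alone in either state fell from 141 to 70, and with a coverage minimum of 0.5 those of OE33 alone went from 14 to 24. With thresholds of 1.0 in place of 0.5 the blocks of HCC1954 alone went from 146 to 40, of SNU-C1 from 141 to 26, of SW480 from 59 to 1 and of OE33 from 14 to 0, so the spread over the lines depends on the threshold. Without the arms set apart 190 such blocks were left, led by HCC1954 alone in A with 48, SNU-C1 alone in B with 47 and SW480 alone in A with 41. Where the lines split evenly, the colorectal lines were B and the others A in 37 blocks, and the reverse held in 13. SW480 and OE33 opposed the other pair as A in 18 blocks and as B in 13, and SW480 and HCC1954 did so in 12 and 3. In the other 928 switching blocks 1 or 2 lines lay between the thresholds.

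**Figure D2:**
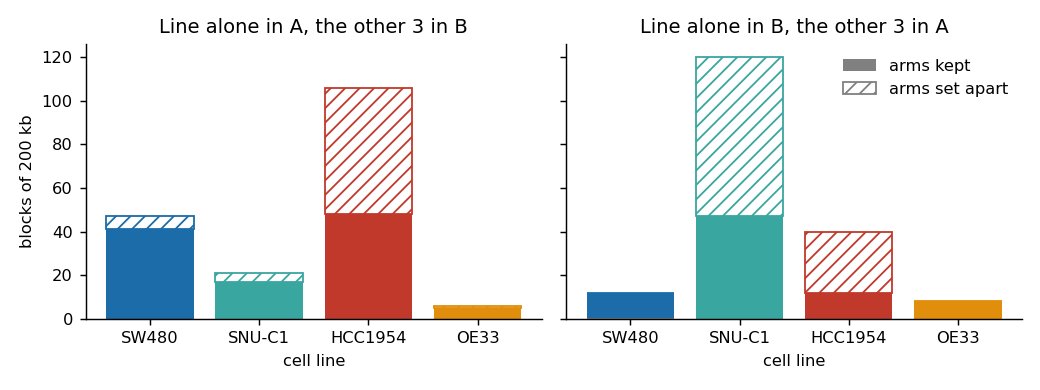
Switching blocks in which 1 line had the opposite compartment of the other 3. Bars give the number of 200-kb blocks per cell line, filled for the arms kept and hatched for the 4 arms set apart. Without the hatched part, SNU-C1 alone in B goes from 120 to 47 blocks and HCC1954 alone in A from 106 to 48.

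The eigenvectors used contacts within an arm, so contacts between chromosomes entered the choice of blocks only through the correction of the maps. In SNU-C1, HCC1954 and OE33 that correction ran over the whole genome. For the 3 lines whose maps hold them in number, a trans score was computed per block. It is the log2 ratio of contact with blocks A in all lines to contact with blocks B in all lines, as a median over partner chromosomes, rescaled per line to 0 at the median of constant B blocks and 1 at that of constant A blocks. Of the switching blocks, 1028 were A in 1 and B in another of these lines. In 937 of them the score was higher where the block was A (91.1%, exact 95% binomial interval 89.2 to 92.8). With contacts within chromosomes corrected again per chromosome before the choice, it was higher in 1026 of 1130 (90.8%). Without the arms set apart it was higher in 749 of 760 (98.6%), with medians of 0.730 in the A lines and 0.244 in the B lines. On the arms set apart it was higher in 188 of 268 (70.1%), with a median difference of 0.0808. Neighbouring blocks share contacts and the lines have 1 map each, so these counts describe the maps and are no test across lines.

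Each pair of lines showed the same direction outside the arms set apart. Blocks A in HCC1954 and B in SNU-C1 scored higher in HCC1954 in 388 of 389 cases, against 53.1% of all blocks. In the reverse case SNU-C1 was higher in 97 of 104, against 46.9%. Blocks A in OE33 and B in SNU-C1 scored higher in OE33 in 236 of 236, against 51.5%, and in the reverse case SNU-C1 was higher in 128 of 131, against 48.5%. Blocks A in HCC1954 and B in OE33 scored higher in HCC1954 in 174 of 175, against 52.6%. The lowest share was for blocks A in OE33 and B in HCC1954, with OE33 higher in 66 of 78 (84.6%), against 47.4%. When odd and even partner chromosomes were scored separately, the sign of the difference was the same in 94.5% to 98.9% of the blocks of a pair.

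**Figure D3:**
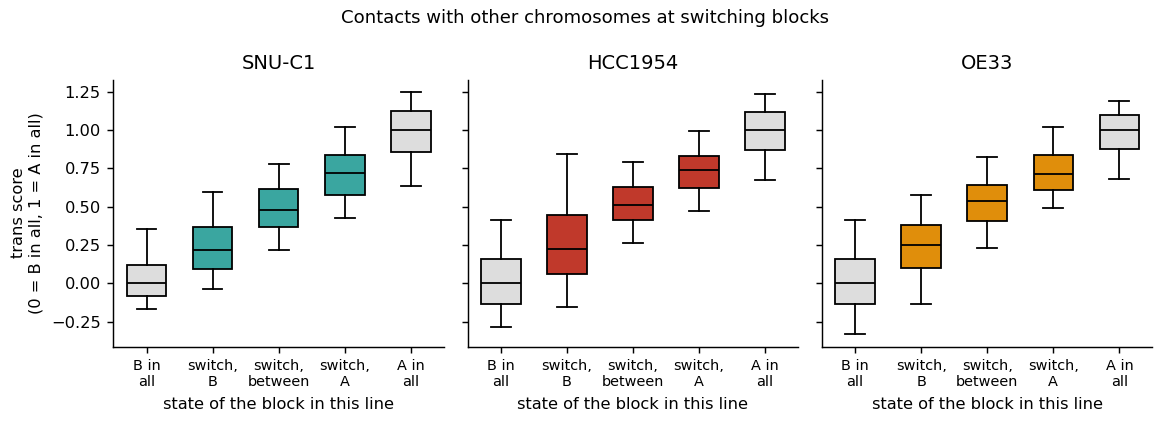
Trans score by compartment state in the 3 lines with contacts between chromosomes. Boxes give the median and quartiles over 200-kb blocks and whiskers the percentiles 5 and 95, grey for blocks constant in all lines and coloured for switching blocks outside the arms set apart. Switching blocks that were B had medians of 0.220 (SNU-C1), 0.224 (HCC1954) and 0.252 (OE33), and those that were A had 0.723, 0.743 and 0.712.

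Outside the arms set apart switching blocks lay by their medians between the levels of the constant blocks, while single blocks and runs could pass them. Where they were A their median trans scores, 0.723, 0.743 and 0.712 in the order of the plot of trans scores, were below 1, and where they were B they were above 0. Blocks between the thresholds had 0.481, 0.511 and 0.536. Outside those arms the upper quartile of B blocks was below the lower quartile of A blocks in each line, with 0.366 and 0.576 in SNU-C1, 0.446 and 0.624 in HCC1954, and 0.382 and 0.608 in OE33. On the arms set apart they overlapped in SNU-C1, at 0.680 and 0.663, and in HCC1954, at 0.816 and 0.132, and not in OE33, at 0.164 and 0.699. Members that did not score higher in their A lines lay mostly on the arms set apart, with 36 of 83 on 9p, 34 of 136 on 13q, 9 of 32 on 21q and 1 of 17 on 20p. Outside them they lay on 12p, with 8 of 39, and on 8p, 17q and 18p, with 1 each, and on the other 31 arms every scored member did.

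The SW480 map holds few pairs between chromosomes, with a median of 20 bin pairs per block. A score from the sum of these pairs, added after the data had been seen, had a median of 0.702 at switching blocks where SW480 was A and 0.134 where it was B, outside the arms set apart. In the 41 blocks A in SW480 alone it was 0.627, and by the same sum SNU-C1 had 0.121, HCC1954 0.00986 and OE33 0.0864. In the 12 blocks B in SW480 alone it was 0.113, against 0.718, 0.586 and 0.649.

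Coverage differed between the A and B lines of switching blocks. It was counted as the read pairs of a block within its chromosome, relative to the median of the line. Outside the arms set apart it was higher in the A lines in 912 of 1081 blocks (84.4%). The median difference was 0.41 on the log2 scale. A share over all blocks was not computed, so this count has no background beside it. On the arms set apart the median was -0.82. Among 227 blocks outside those arms with coverage within 1.2-fold, the trans score was higher in the A lines in 225. Coverage was averaged over all 4 lines here and the trans score over 3, so coverage was not matched between the scored lines alone. The part of coverage in the trans score was not tested.

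Switching blocks lay between constant A and constant B blocks in gene content. Outside the arms set apart they held 4.22 protein-coding gene starts per Mb, against 7.004 over all blocks, 14.5 in blocks A in all lines and 2.36 in blocks B in all lines. Of these blocks 52.2% had no such start, near the 45.8% of all blocks, against 12.7% and 76.8% in the constant classes. Their median GC content was 39.5%, between 44.3% and 36.8%. Blocks neither switching nor constant also lay between, with 6.49 gene starts per Mb and a median GC content of 40.2%. Gene number set the sign of the eigenvector of each arm, so these classes are not free of it. Genes in switching blocks had a median length of 46.7 kb, against 25.6 kb in constant A blocks, 29.0 kb in constant B blocks and 29.7 kb over all blocks. Genes over 500 kb made up 3.84% of them, against 0.334%, 7.74% and 1.72%.

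Blocks of 1 line alone differed in gene content. The 41 blocks A in SW480 alone held 0.854 gene starts per Mb, and 36 of them held none. The 48 blocks A in HCC1954 alone held 1.35 per Mb, with none in 35. The 47 blocks B in SNU-C1 alone held 4.15 per Mb at a median GC content of 41.3%, and the 12 blocks B in HCC1954 alone held 7.92, with none in 1 block. The 17 blocks A in SNU-C1 alone held 4.41 per Mb and the 12 blocks B in SW480 alone 2.92. The 5 blocks A in OE33 alone held 2.00 per Mb and the 8 blocks B in it alone 9.38. Blocks A in 1 line alone were poorer in genes than blocks B in it alone for SW480, HCC1954 and OE33. A block A in 1 line alone was B in all others, and gene number set the sign of the eigenvector, so this order is not free of the rule. The OE33 classes held only 2 and 15 genes. For SNU-C1 the order turned with the arms set apart, since over all arms its blocks held 3.81 per Mb alone in A and 6.17 alone in B. By the summed trans score the 47 blocks of SNU-C1 were at 0.393 in that line, against 0.838 in HCC1954. The 12 blocks of HCC1954 were at 0.890 in that line, close to 1.01 in SNU-C1.

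**Figure D4:**
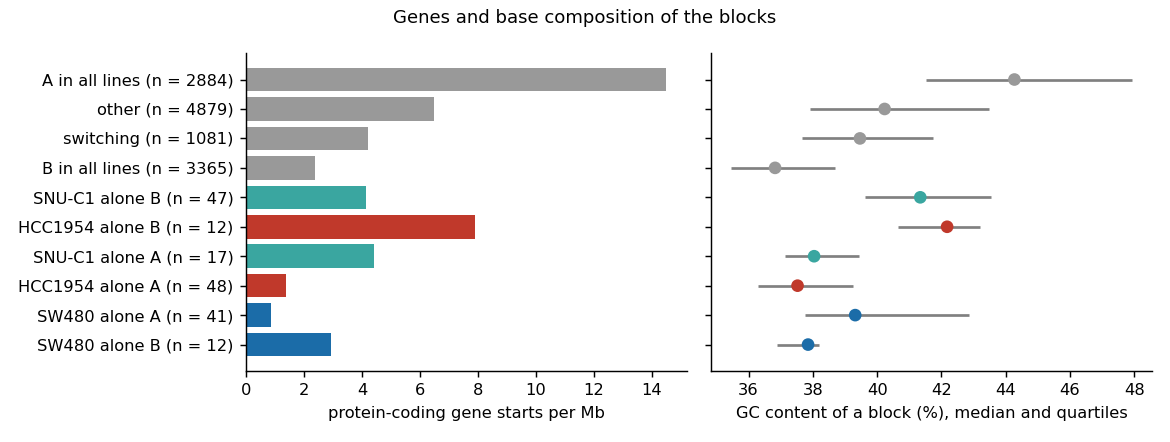
Gene and base content of block classes. Left, bars give protein-coding gene starts per Mb; right, points give the median GC content of the blocks with its quartiles. Classes constant in all lines and the class of other blocks cover all arms, and the remaining classes leave out the 4 arms set apart. Switching blocks, at 4.22 starts per Mb, sit between constant B blocks at 2.36 and constant A blocks at 14.5.

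Outside the arms set apart switching blocks made 518 runs of adjacent blocks, of which 272 were single blocks, 123 had at least 3 blocks and 45 at least 5. The runs of at least 3 held 563 of the 1081 blocks. By the sign of their mean over the lines, the blocks on both sides of a run were 1 A and 1 B for 230 runs (44.4%), both B for 141, both A for 112 and in none of these classes for 35. A mean near 0 counted by its sign too, so these classes do not give the state of a neighbour in each line.

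The SERPINB genes on 18q lay between a neighbour A in all lines and a neighbour B in all lines. Their products inhibit proteases, mostly inside cells, and SERPINB3, SERPINB4 and SERPINB13 are typical of squamous epithelium. The run chr18:61200001-61600000 held SERPINB12, SERPINB13, SERPINB4, SERPINB11, SERPINB3, SERPINB7, SERPINB2 and SERPINB10, 8 of the 13 family members in usable blocks. In its first block SW480 had -1.12, SNU-C1 -1.18, HCC1954 1.08 and OE33 0.596, and SW480 replicates 1 and 2 had -1.03 and -1.12. In the second SW480 had -0.875, SNU-C1 -1.12, HCC1954 0.825 and OE33 0.714. Both colorectal lines were thus B and both other lines A, without overlap. The block before the run, with SERPINB5, was A in all lines, from 0.998 to 1.25, and the block after it, with SERPINB8, was B in all, from -1.04 to -0.716. By the eigenvector the A segment therefore reached 400 kb further in HCC1954 and OE33. In contacts with other chromosomes SNU-C1 scored 0.0375, HCC1954 0.724 and OE33 0.498, and both of the latter were above SNU-C1 on 19 of 19 partner chromosomes. The score of OE33 was nevertheless below 0.536, the median of that line for switching blocks between the thresholds. Inside the run the SERPINB promoters had at most 3 CpG, like those of SERPINB3 and SERPINB13 shown above, except SERPINB2 with 9.

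The longest run outside the arms set apart was chr10:90800001-93600000 on 10q, with 14 blocks and 17 protein-coding genes. Among these are IFIT1, IFIT2, IFIT3 and IFIT5, which act on viral RNA after interferon, CH25H, which makes an antiviral oxysterol, LIPA, the lysosomal acid lipase, and KIF20B, a mitotic kinesin. IFIT1B, SLC16A12, PANK1, HTR7, RPP30, ANKRD1, PCGF5, HECTD2, PPP1R3C and TNKS2 are the others. Over the run SW480 had -0.185, SNU-C1 -1.12, HCC1954 1.07 and OE33 0.470 on average. In the block with 6 genes of the IFIT cluster and its neighbours SW480 had 0.818, SNU-C1 -0.688, HCC1954 1.47 and OE33 1.31. SNU-C1 was B and HCC1954 A in every block of the run, and the values of SW480 and OE33 lay between theirs. In the middle of the run 5 blocks hold no protein-coding gene start, and each line had its lowest value there, such as -1.17 in SW480 in a block where HCC1954 had 0.975. In contacts with other chromosomes SNU-C1 scored 0.169, HCC1954 1.02 and OE33 0.734, and HCC1954 was above SNU-C1 on 21 of 21 partner chromosomes.

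**Figure D5:**
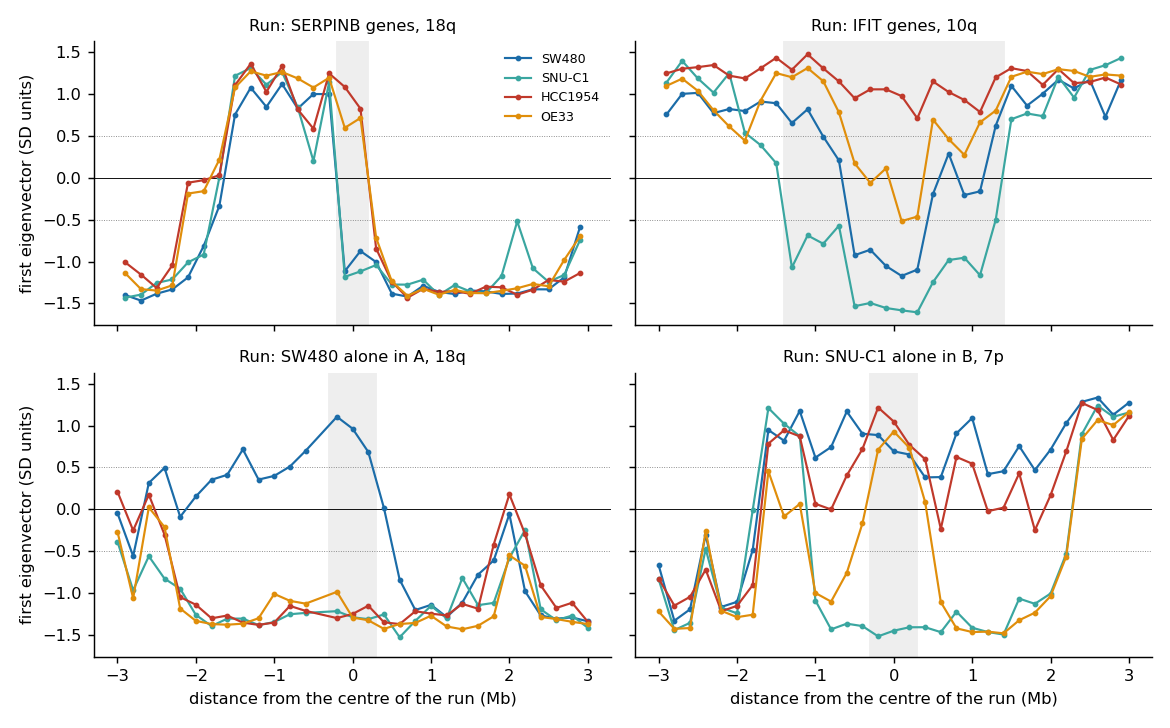
First eigenvector around 4 runs of switching blocks. Points are 200-kb blocks of the 4 lines, in standard deviations of the arm, against the distance from the centre of the run in Mb, with the run shaded and dotted lines at 0.5 and -0.5. At the SERPINB run SW480 and SNU-C1 lie below -0.5 and HCC1954 and OE33 above 0.5, and at the IFIT run HCC1954 lies above 0.5 in all 14 blocks.

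Few runs of at least 3 blocks set 1 line alone against the rest. SW480 was alone in A at chr18:37200001-37800000 on 18q, where no protein-coding gene starts. There SW480 had 0.917, SNU-C1 -1.27, HCC1954 -1.23 and OE33 -1.20, and the SW480 replicates had 0.967 and 0.798. SNU-C1 was alone in B at chr7:41000001-41600000 on 7p, also without such a gene. There SW480 had 0.744, SNU-C1 -1.46, HCC1954 1.01 and OE33 0.791, and SNU-C1 scored 0.0328, HCC1954 0.822 and OE33 0.638 in contacts with other chromosomes. HCC1954 was alone in A at chr18:42000001-42800000 on 18q, with SETBP1, a partner of the protein SET, and SLC14A2, a urea transporter of the kidney. There SW480 had -1.06, SNU-C1 -1.05, HCC1954 0.859 and OE33 -1.20, and SNU-C1 scored 0.0801, HCC1954 0.545 and OE33 -0.129. Outside the arms set apart no such run had SNU-C1 alone in A, SW480 alone in B or OE33 alone in either.

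One run on 12p had no counterpart between chromosomes. HCC1954 was alone in B at chr12:12200001-12800000, with LRP6, a Wnt co-receptor, DUSP16, a phosphatase of MAP kinases, BCL2L14, MANSC1, BORCS5 and CREBL2. There SW480 had 1.27, SNU-C1 1.07, HCC1954 -0.778 and OE33 1.22. In contacts with other chromosomes, however, SNU-C1 scored 0.991, HCC1954 0.946 and OE33 0.971, all near the level of constant A blocks, and SNU-C1 was above HCC1954 on 12 of 21 partner chromosomes. The label of a switch in HCC1954 is not borne out there.

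On the arms set apart, the lines mostly scored on the same side between chromosomes in the longest run and in runs of 1 line alone. The longest run of all, chr13:39000001-47400000 on 13q with 42 blocks and 47 protein-coding genes, had -1.41 in SNU-C1, against 1.13 in SW480, 1.27 in HCC1954 and 0.656 in OE33. Its genes include FOXO1, a forkhead factor, and LCP1, an actin bundler of blood cells. Between chromosomes SNU-C1 scored 0.683, HCC1954 0.821 and OE33 0.705, all on the A side. The order of the lines still followed the eigenvector, with HCC1954 above SNU-C1 on 20 of 21 partner chromosomes and OE33 above it on 17. At chr13:49400001-51200000 on 13q, with SETDB2, KPNA3, TRIM13 and 10 further genes, SNU-C1 was alone in B at -1.62 and scored 0.673, against 0.831 in HCC1954 and 0.798 in OE33, each above SNU-C1 on 20 of 21 partner chromosomes. Coverage of SNU-C1 was 2.69 times its median in the longest run and 2.54 times in the other, and its part in the difference was not tested. On 9p HCC1954 was alone in A at chr9:22400001-23600000, with DMRTA1, at 1.29 and scored -0.0696, above SNU-C1 on 12 and above OE33 on 13 of 21 partner chromosomes. It was alone in B at chr9:4400001-5000000, with JAK2, the cytokine receptor kinase, and 6 further genes, at -1.36 and scored 0.797, with SNU-C1 above it on 4 and OE33 on 13 of 21, and its coverage there was 4.96 times its median. At chr20:18800001-19400000 on 20p, where SLC24A3 starts, the scores did follow the eigenvector. SNU-C1 was alone in A at 0.911, and SNU-C1 scored 0.855, HCC1954 0.470 and OE33 0.0776, with SNU-C1 above HCC1954 on 20 and above OE33 on 21 of 21 partner chromosomes.

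Among the widest ranges outside the arms set apart were blocks of 4q. At chr4:125800001-126000000, without a gene start, SW480 had -1.07, SNU-C1 -1.26, HCC1954 1.75 and OE33 0.0238. At chr4:157600001-157800000, again without a gene start, SW480 had 1.11, SNU-C1 -1.38, HCC1954 1.55 and OE33 0.133. In both blocks the trans score was highest in the line with the highest eigenvector of the 3 scored, at 0.729 and 0.868.

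Next came 2 blocks of 12p. At chr12:27800001-28000000, with REP15, MRPS35, KLHL42 and MANSC4, HCC1954 had -1.65 and OE33 1.25. Between chromosomes SNU-C1 scored 0.714 there, HCC1954 0.596 and OE33 0.868. HCC1954 was lowest, yet above 0.511, the median of that line for switching blocks between the thresholds. At chr12:14000001-14200000, with GRIN2B, a glutamate receptor subunit, HCC1954 had -1.83, SNU-C1 0.978 and OE33 -1.22. Between chromosomes SNU-C1 scored 0.838 there, HCC1954 0.5004 and OE33 0.141, so OE33 was below HCC1954 despite its higher eigenvector. At chr6:38600001-38800000 on 6p, with BTBD9, GLO1 and DNAH8, SNU-C1 had 1.22, HCC1954 1.73 and OE33 -1.05. Between chromosomes SNU-C1 scored 1.05 there, HCC1954 0.829 and OE33 0.547, so SNU-C1 was above HCC1954 despite its lower eigenvector. OE33 was lowest, yet above 0.536, the median of that line for switching blocks between the thresholds. The block chr8:34800001-35000000 on 8p had 1.49 in SNU-C1 and -1.26 in OE33, and its coverage in SNU-C1 was 9.93 times the median of that line. The blocks chr9:112400001-112600000, chr7:41000001-41200000 and chr6:100600001-100800000 were lowest in SNU-C1, from -1.52 to -1.13, and highest in HCC1954. None of these 3 holds a gene start. On the arms set apart the widest were chr13:51800001-52000000 with SERPINE3, where SNU-C1 had -1.90 and HCC1954 1.77, and chr20:21000001-21200000 with KIZ, a centrosome protein, where HCC1954 had -2.13 and SW480 1.47. Next there were chr13:42200001-42400000, where SNU-C1 had -1.48 and HCC1954 1.75, and chr13:34600001-34800000, where they had -1.61 and 1.58. At chr20:22200001-22400000 HCC1954 had -1.96 and SW480 1.21, and at chr20:22800001-23000000 they had -1.71 and 1.37. No protein-coding gene starts in these 4 blocks.

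Of 159 genes on 6 lists of lineage and process genes, 25 started in a switching block, of which 21 outside the arms set apart, against 7.06% of all 17522 protein-coding genes. The list of intestinal genes had 5 of 32, the mammary list 4 of 26, the foregut and squamous list 6 of 28, the list of epithelial-mesenchymal transition 6 of 25 and the immune list 4 of 20. The list of long neuronal and fragile-site genes had 0 of 28, and 22 of these were B in all lines (78.6%), against 9.07% of all protein-coding genes. Some listed genes share a block, and expression was not measured in these data.

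The 6 foregut and squamous genes that switched lie in 4 blocks, which were B in SNU-C1 and A in HCC1954, the commonest opposition of a pair of lines, found in 577 of the 1384 switching blocks. SERPINB3, SERPINB4 and SERPINB13 shared the first block of the 18q run. For ANXA10, an annexin of gastric epithelium at chr4:169013688-169108887, SW480 had -0.651, SNU-C1 -1.15, HCC1954 0.725 and OE33 0.933, the same split of colorectal from other lines, and SNU-C1 scored 0.0653, HCC1954 0.561 and OE33 0.538 between chromosomes. For PAX9, a factor of the pharynx and oesophagus at chr14:37126773-37148567, SW480 had -0.0638, SNU-C1 -1.10, HCC1954 0.974 and OE33 0.177. For NKX2-1, a factor of lung and thyroid in the same run on 14q, SW480 had 0.410, SNU-C1 -0.790, HCC1954 0.785 and OE33 -0.160. Between chromosomes HCC1954 was the highest of the scored lines at all of them.

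The 4 mammary genes that switched were A in HCC1954, as were 749 of the 1384 switching blocks. For GATA3, a luminal transcription factor at chr10:8087341-8117161 on 10p, SW480 had -0.331, SNU-C1 -0.822, HCC1954 0.552 and OE33 0.585. Over its run of 5 blocks, chr10:8000001-9000000, SW480 had -1.01, SNU-C1 -0.952, HCC1954 0.780 and OE33 0.724, so on average both colorectal lines were below -0.5 and the others above 0.5. In the block of GATA3 itself SW480 lay between the thresholds, and the lowest value of OE33 in the run was 0.462. There SNU-C1 scored 0.159, HCC1954 0.805 and OE33 0.703, and HCC1954 and OE33 were above SNU-C1 on 21 of 21 partner chromosomes. For PRLR, the prolactin receptor at chr5:35048861-35230589, SW480 had -1.20, SNU-C1 0.819, HCC1954 0.739 and OE33 -0.548. Between chromosomes SNU-C1 scored 0.579, HCC1954 0.592 and OE33 -0.0137 at PRLR. For TRPS1, a GATA-type repressor on 8q, SW480 had -1.22, SNU-C1 0.991, HCC1954 1.12 and OE33 -0.431. There SNU-C1 scored 0.613, HCC1954 0.558 and OE33 0.0864, and coverage was 2.58 times the median in HCC1954 and 2.41 in SNU-C1. For NAT1, an arylamine acetyltransferase on 8p, SW480 had -0.761, SNU-C1 -0.645, HCC1954 0.555 and OE33 0.783, while the trans scores, from 0.691 to 0.846, lay close together.

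By the eigenvector, no block of the intestinal genes that switched set both colorectal lines against both other lines. At GUCY2C and CDX2 the trans scores went against the eigenvector labels, so nothing is concluded here about the organ of origin. CA1 and CA2, carbonic anhydrases, start in 1 block of 8q. There SW480 had -0.863, SNU-C1 0.905, HCC1954 -1.41 and OE33 -0.703, SNU-C1 scored 0.540, HCC1954 0.0623 and OE33 0.282, and coverage in SNU-C1 was 2.79 times its median. For GATA4, a factor of stomach and small intestine on 8p, SW480 had 0.772, SNU-C1 -0.977, HCC1954 -0.519 and OE33 0.956, and SNU-C1 scored 0.624, HCC1954 0.423 and OE33 0.790. OE33 was thus highest, yet the score of SNU-C1 was above 0.576, the lower quartile of its switching blocks in A, despite its B label. For GUCY2C, the guanylin receptor on 12p, SW480 had -0.571, SNU-C1 0.642, HCC1954 -1.15 and OE33 0.509, but HCC1954 had the highest trans score, 0.853. CDX2, a master factor of the intestine, lay on 13q, 1 of the arms set apart. There SW480 had 1.39, SNU-C1 -0.852, HCC1954 0.714 and OE33 0.750, while the trans score of SNU-C1, 0.991, was the highest of the 3.

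Genes of epithelial-mesenchymal transition switched in different lines. ZEB1 and ZEB2 encode related repressors of epithelial genes. For ZEB1 at chr10:31607424-31818742, SW480 had 0.828, SNU-C1 -0.893, HCC1954 -0.625 and OE33 0.700, and SNU-C1 scored 0.430, HCC1954 0.384 and OE33 0.814. For ZEB2 at chr2:145121931-145278624, SW480 had -0.674, SNU-C1 -0.980, HCC1954 0.541 and OE33 -1.26, and SNU-C1 scored 0.142, HCC1954 0.421 and OE33 0.322. By the eigenvector ZEB1 was thus A in SW480 and OE33, and ZEB2 in HCC1954 alone. The trans score of HCC1954 at ZEB2, 0.421, was below 0.511, the median of that line for switching blocks between the thresholds. For TCF4, a basic helix-loop-helix factor on 18q, SW480 had -1.38, SNU-C1 0.616, HCC1954 -1.23 and OE33 -0.469, and SNU-C1 scored 0.582, HCC1954 -0.0545 and OE33 0.222. MMP2, a gelatinase on 16q, was A in HCC1954 at 0.917 and B in OE33 at -1.06, with trans scores of 0.872 and 0.191. COL1A2, a collagen chain on 7q, was A in SW480 at 0.656 and B in SNU-C1 at -1.20, where the trans score was 0.179. OVOL2, a factor of the epithelial state on 20p, an arm set apart, was A in SNU-C1 at 1.17 and B in HCC1954 at -0.686. Its trans score in HCC1954, 0.830, was on the A side, as were 1.04 in SNU-C1 and 0.767 in OE33, so the B label is not borne out there.

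Of the immune genes, IL6, the cytokine at chr7:22765503-22771621, was B in SNU-C1 only. There SW480 had 0.139, SNU-C1 -1.25, HCC1954 1.12 and OE33 1.22, and SNU-C1 scored 0.275, HCC1954 0.823 and OE33 0.842. For CIITA, the activator of MHC class II genes on 16p, SW480 had -0.654, SNU-C1 -1.04, HCC1954 0.869 and OE33 -0.0820, and SNU-C1 scored 0.425, HCC1954 0.947 and OE33 0.794. CD274, the ligand of PD-1, and IL33, an alarmin, lay on 9p, where the eigenvector of HCC1954 stood apart. HCC1954 was B there, at -1.31 and -1.19, with trans scores of 0.825 and 0.754 and coverage of 5.69 and 3.78 times its median.

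Gene families fell on both sides of the 7.06% of all protein-coding genes that start in a switching block. All 55 keratin genes were A in every line, against 47.8% of all protein-coding genes. Ribosomal protein genes switched in 1 of 71 cases, RPL21 on 13q, protocadherin genes in 1 of 62, PCDH8 on 13q, olfactory receptor genes in 10 of 361 and zinc finger genes in 13 of 456, shares of 1.41%, 1.61%, 2.77% and 2.85%. The 17 of 83 keratin-associated protein genes that switched all lay on 21q. Of 39 HOX genes 6 switched (15.4%), HOXD8 to HOXD13 in 1 block, where SW480 had 0.587, SNU-C1 0.159, HCC1954 -0.682 and OE33 -0.599, and SNU-C1 scored 0.486, HCC1954 0.523 and OE33 0.499. Of 17 UGT genes 3 did (17.6%). For UGT2A3 and UGT2B7, which conjugate lipophilic compounds with glucuronic acid, SW480 had -1.02, SNU-C1 0.944, HCC1954 0.502 and OE33 0.471, and for UGT8, which makes galactosylceramide, SW480 had 0.524, SNU-C1 1.41, HCC1954 -1.16 and OE33 -0.644. CEACAM19 and CEACAM20 were 2 of 12 in their family (16.7%), and the 8 of 13 SERPINB genes (61.5%) lay in 2 adjacent blocks. Genes of a family often share a block, so these shares rest on few blocks.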

How the data were processed

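The 6 maps of 4 cell lines were analysed as deposited. Per the study's methods, BWA-MEM was used for alignment to hg19 and Picard for duplicate removal, followed by iterative correction. The signal deposited by the authors is the contact frequency after this correction, in 40-kb bin pairs; its bin sums show that SW480 was corrected within chromosomes and the other lines over the genome. Tool versions and read filters were not given in the sources used here. Fitting 1 factor per bin recovered read pairs within chromosomes, 133380811 in SW480 (replicates 65986979 and 67369458), 115014329 in SNU-C1, 93501178 in HCC1954 as well as 89418425 in OE33. Between chromosomes the last 3 lines had 20003017, 22858042 and 51702327.

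A bin had to reach 0.25 of the median coverage of each line, as 62198 of 72036 autosomal bins did. Blocks needed 3 of 5 usable bins, and arms 20 blocks, which left 39 arms. The expected contact was the mean by distance over a map, from 5 Mb on smoothed over 10% of the distance. For the trans score a partner chromosome needed 10 read pairs and a block 5 partners. Genes were placed by GENCODE start on GRCh37. By rule the text names listed genes in switching blocks, for each line the run of at least 3 blocks where it stands alone with the widest gap, the 10 widest ranges and the longest run, also without the arms set apart. Of the widest ranges 1 is not reported here. The promoters, the members on 12p and the gene families were picked after seeing their values. Members and lists were chosen with earlier results of these data known. The software was Python 3.11.15 with NumPy 2.4.6 and SciPy 1.17.1, besides pandas 2.3.3 and Matplotlib 3.10.9.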

Additional observations from a re-analysis of the deposited data

How the results depend on the processing

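The number of switching blocks was 1384, and 294 with thresholds of 1.0, 2418 with thresholds of 0.25 and 786 of 6239 with blocks of 400 kb. Leaving out SW480 replicate 1 or 2 gave 1348 to 1352. Blocks with 1 line alone were 360, and 67 at 1.0, 957 at 0.25, 235 with 400 kb, 190 without the arms set apart and 238 with the second eigenvector on 8p, 9p, 13q and 20p, the last chosen after seeing the data. The share with the higher trans score in the A line was 91.1%, and 84.7% at 1.0, 92.9% at 0.25, 98.6% without the arms set apart, 97.5% with the second eigenvector, 94.8% with the expected value per chromosome, 94.1% with the sign from GC content, 88.8% with 400 kb and 87.5% at a coverage minimum of 0.5. The share without a protein-coding gene was 50.4%, and 46.5% at 0.25, 56.6% with centred eigenvectors, also chosen after seeing the data, and 26.3% with 400 kb, where a block holds more sequence. The share of SW480 states kept was 91.0%, and 86.9% at 1.0. Listed genes numbered 25, and 7 at 1.0 and 39 at 0.25. Apart from the block size, the cause of each change was not tested. No paired analysis was possible because the labels number replicates of SW480 only.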
